A study of Mus musculus with 4 samples.

Results

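The genes described here are 37 transcripts of the integrated stress response and of the amino acid supply and tRNA charging that this response controls. They were chosen by gene symbol from known roles, at a time when earlier results of these data were known. Each was read from the probe set with the highest mean signal among those whose Mouse Genome 430 2.0 annotation names that symbol alone, with current names such as Mars1 counted for Mars. All 37 had such a probe set, and all 37 were bright enough to be tested, out of 12997 gene symbols tested in all. Counting dimmer ones, these genes had 82 probe sets, of which 72 were tested.

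RNA was taken from whole embryonic kidneys of the C57BL/6 strain at day 15 of gestation (E15), while nephrons are still forming, and was hybridised to Affymetrix arrays. In the iron-deficient group the dams ate a synthetic diet with roughly 2 to 6 ppm iron, and in the control group a diet with 220 ppm iron, for 3 weeks before gestation and then through mating and pregnancy. The females were 8 weeks old when they were put on the diets, and the sires were of the same strain. Each group holds 2 pools of 16 kidneys, with 1 array per pool, and nothing in the labels tells whether different litters supplied the pools of 1 diet. The p-values therefore reflect how far these 4 pools scatter, part of which may be technical. They also draw on the spread shared over all tested probe sets.

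The integrated stress response is a shared pathway that slows protein synthesis when a cell lacks amino acids, haem or folding capacity in the endoplasmic reticulum. Its kinases, among them the haem-sensing HRI (Eif2ak1), PERK (Eif2ak3), which senses unfolded protein in the endoplasmic reticulum, and GCN2 (Eif2ak4), which senses uncharged tRNA, phosphorylate the translation initiation factor eIF2. Translation then drops in general, but the mRNA of the transcription factor ATF4 is translated better, and ATF4 raises transcription of genes for amino acid synthesis, amino acid uptake and tRNA charging. Phosphorylation of eIF2 and ATF4 protein are not measured by an expression array.

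ATF4 binds DNA as a dimer with C/EBP proteins at a composite element. Promoter sequences are shown here because the core of this element lies near the start of some of these genes. RefSeq promoter windows of the GRCm38.p6 assembly, which run from 250 bases before to 50 bases after a gene's start, were found for 30 of the 37 genes (35 windows), with Cars, Eif4ebp1, Lars, Nars, Slc7a3, Slc7a5 and Wars not in the table. They were searched on both strands for TGATGNAA, the core of the element. It was present in a window of 10 genes, at 11 sites that do not overlap, and in 28.6% of the 35 windows, against 3.97% of all 32851 windows in the table. Of these sites, 10 follow with flanks, each read 5′ to 3′ on the strand that carries TGATGNAA, and capitals mark the match.
Aars (chr8:111033840-111033869, minus strand): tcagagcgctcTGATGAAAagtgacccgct
Asns (chr6:7693214-7693243, minus strand): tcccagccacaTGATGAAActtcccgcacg
Chac1 (chr2:119351038-119351067, minus strand): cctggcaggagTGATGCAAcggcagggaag
Gars (chr6:55037960-55037989, minus strand): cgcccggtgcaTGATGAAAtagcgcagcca
Iars (chr13:49682126-49682155, minus strand): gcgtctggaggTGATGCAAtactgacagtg
Nupr1 (chr7:126625562-126625591, plus strand): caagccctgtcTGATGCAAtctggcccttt
Tars (chr15:11399655-11399684, plus strand): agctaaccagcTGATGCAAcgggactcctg
Trib3 (chr2:152344028-152344057, plus strand): ccccgcccggcTGATGTAAacctgagctaa
Vldlr (chr19:27216809-27216838, minus strand): gctaggagcgcTGATGCAActattgctgct
Yars (chr4:129189895-129189924, plus strand): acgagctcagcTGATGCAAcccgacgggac
Over all 11 sites the variable base was C at 7, A at 3 and T at the Trib3 site. Of the 8 tRNA synthetase genes with a window, 5 held the motif. A match is a run of letters and does not show binding, and the absence of a match concerns these windows only.

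The setting of the motif is shown for Chac1 and Asns, picked as examples. The sites of Gars, Nupr1, Tars and Vldlr also begin upstream of the start. The 250 bases before the start are printed on the strand of the gene with the match in capitals.
Chac1 (chr2:119350992-119351241, plus strand): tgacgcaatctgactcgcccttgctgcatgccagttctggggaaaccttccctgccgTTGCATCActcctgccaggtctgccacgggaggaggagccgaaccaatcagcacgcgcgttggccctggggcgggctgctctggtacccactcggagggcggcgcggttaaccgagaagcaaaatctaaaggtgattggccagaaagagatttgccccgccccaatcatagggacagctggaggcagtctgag
Asns (chr6:7693210-7693459, minus strand): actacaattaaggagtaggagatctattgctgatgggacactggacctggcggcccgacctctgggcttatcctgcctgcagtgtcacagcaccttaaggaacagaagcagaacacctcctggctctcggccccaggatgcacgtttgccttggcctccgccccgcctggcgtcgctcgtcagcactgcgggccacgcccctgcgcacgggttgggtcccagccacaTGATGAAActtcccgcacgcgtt
The Chac1 match, which reads in the direction opposite to the gene, begins 193 bases before the start, and the Asns match, in the direction of the gene, begins 23 bases before it.

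Signals are scaled array intensities, and differences are log2, iron-deficient minus control, with standard errors from limma. These errors are not the scatter of 1 gene alone. Each variance is drawn toward that of all tested probe sets, with 3.49 prior against 2 residual degrees of freedom. Before the values, some facts of the arrays bear on them. The 2 iron-deficient pools were less alike than the 2 control pools, with a standard deviation of log2 differences over all tested probe sets of 0.964 between the iron-deficient and 0.504 between the control pools. Iron-deficient pool 1 stood apart, since its log2 signals correlated with those of other arrays at 0.883 to 0.913 across probe sets, while the control pools reached 0.978 with each other. The median tested probe set differed by -0.10 between the diets. Markers of nephron progenitors, 5 of 5, were above the background of the array in all 4 pools, as the kidney label calls for. Proximal tubule markers, 9 in all, had summed signals of 591 and 1498 in iron-deficient pools 1 and 2, against 4164 and 3925 in control pools 1 and 2, with 6 of the 9 above background in every pool, and their part in the differences given here was not tested. In whole kidneys, fewer cells of a type and less RNA per cell cannot be told apart. The labels give every sample as female, yet the Y-linked gene Eif2s3y had signals of 254 and 20.8 in iron-deficient pools 1 and 2, against 594.5 and 600 in the control pools. Xist, from the inactive X chromosome, had 3427 and 1543 in the iron-deficient pools, against 927 and 168 in the control pools, so the pools also differed in sex-linked transcripts.

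None of the 37 genes passed at an adjusted p of 0.05 over all 27022 probe sets by limma, where 0% of all probe sets passed, and the smallest adjusted p among the genes was 0.852. At an unadjusted p of 0.05, 1 gene, Trib3, was higher in the iron-deficient pools and none was lower, where 1.14% of all tested probe sets were higher and 2.81% lower. The median difference of the 37 genes was -0.02 on the log2 scale, with 17 positive and 20 negative. For 7 genes both iron-deficient pools were higher than either control pool (11.8% of all tested probe sets did so), and these were Trib3, Cebpb, Chac1, Slc7a3, Vldlr, Atf4 and Eif2ak3. Trib3, Cebpb, Chac1 and Slc7a3 were the dimmest of the 37 in the control pools. Array background was higher in the iron-deficient pools (14.4 and 13.3) than in the control pools (8.5 and 8.2), and its part in these differences was not tested. For 5 genes both were lower than either control pool (25% of all tested probe sets), namely Eif2ak1, Psph, Mthfd2, Slc7a5 and Tars. For the other 25 genes the pools of the diets overlapped. The plot of signals by pool shows all of these values.

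**Figure D1:**
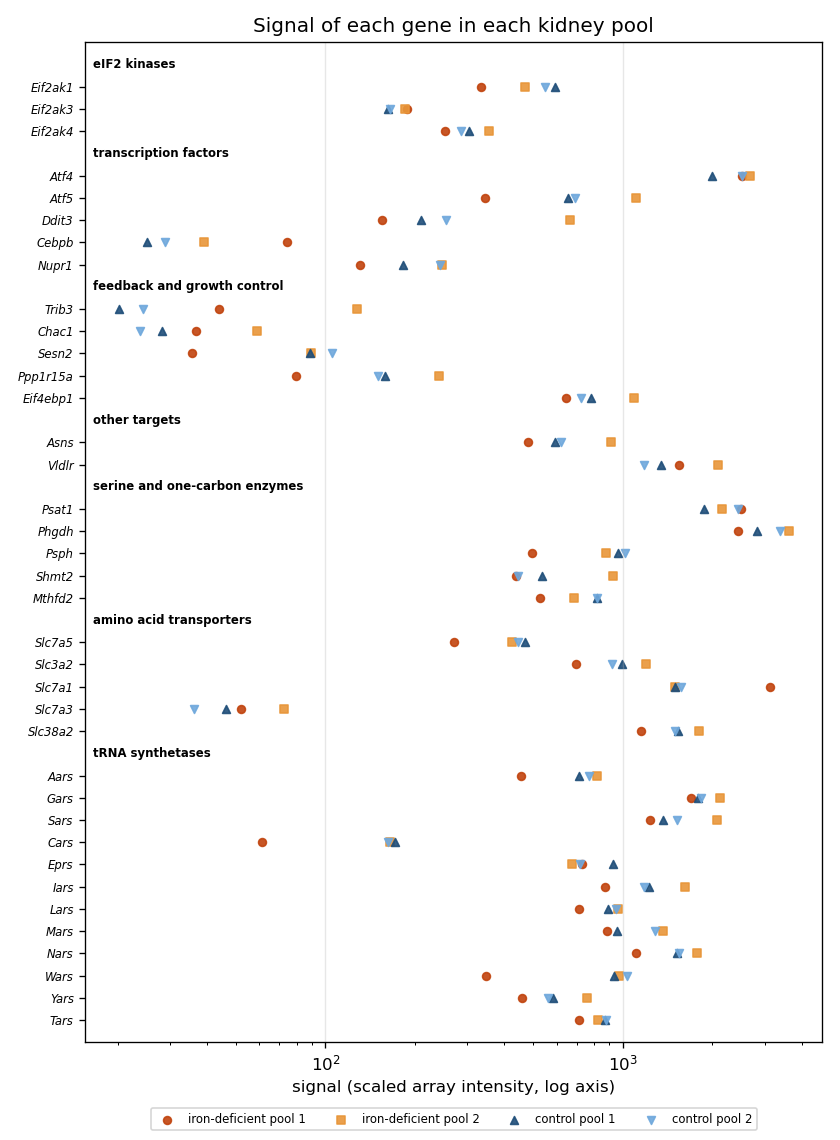
Signal of each of the 37 genes (scaled array intensity, log axis) in iron-deficient pools 1 and 2 (orange tones) and control pools 1 and 2 (blue tones), 1 point per pool, grouped by role. The 2 control points lie close together for most genes, while the iron-deficient points are spread apart, as for Ddit3 at 155 and 664.

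The eIF2 kinases open the pathway. Eif2ak1, which encodes the kinase that haem keeps inactive and which is best known from red cell precursors, had signals of 335 and 470 in iron-deficient pools 1 and 2, against 590 and 548 in control pools 1 and 2. Both iron-deficient pools were below both control pools, and the difference was -0.52 ± 0.34 (SE, n = 2 pools per diet, limma adjusted p = 0.852). Its dimmer tested probe sets differed by -0.18 and -0.67, so the sign was shared by all 3. The 7 measured erythroid markers summed to 2708 and 2230 in the iron-deficient pools, against 1096 and 1216 in the control pools, with 6 of 7 above background in every pool. Of the 6 tested, 4 were above both control pools in both iron-deficient pools and 1 was below. The lower one was Alas2, the erythroid enzyme of haem synthesis, at 135 and 306 in the iron-deficient pools, against 520.1 and 480 in the control pools, and the part of erythroid cells in the Eif2ak1 difference was not tested. Eif2ak3, the endoplasmic reticulum sensor, had 188 and 186 in the iron-deficient pools, against 163 and 165 in the control pools. These groups did not overlap, and the standard deviations of the signals were 1.48 in the iron-deficient and 1.56 in the control pools. The difference, 0.19 ± 0.31, was small beside an error that limma draws toward the spread of all tested probe sets. Eif2ak4, the sensor of uncharged tRNA, had 252 and 356 in the iron-deficient pools, against 304.5 and 286 in the control pools. Its iron-deficient pools lay on either side of the controls, and the 95% interval of the difference ran from -0.84 to 0.88.

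Among the transcription factors, Atf4 had 2521 and 2681 in the iron-deficient pools, against 1992 and 2515 in the control pools. The lower iron-deficient signal exceeded the higher control signal by little. The difference was 0.22 ± 0.33 (limma adjusted p = 0.876), with a 95% interval from -0.60 to 1.03. The other tested Atf4 probe set had 596 and 1136 in the iron-deficient pools and 863 and 698 in the control pools, which overlapped. Ddit3, which encodes the factor CHOP that promotes cell death under lasting stress, had 155 and 664 in iron-deficient pools 1 and 2, against 210 and 254 in the control pools. Pool 2 was thus far above both controls while pool 1 was below both, and the fitted difference of 0.47 ± 0.71 describes neither pool. The dimmer Ddit3 probe set did not show the gap, with 37.5 and 29.7 in the iron-deficient pools and 38.9 and 25.7 in the control pools. Atf5, a relative of ATF4 that is also under translational control, had 344 and 1105 in the iron-deficient pools, against 655 and 692 in the control pools. It split in the same way, with a difference of -0.13 ± 0.59.

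Cebpb, a C/EBP factor that responds to stress and inflammation, had 74 and 39.1 in the iron-deficient pools, against 25.2 and 28.9 in the control pools. Both iron-deficient pools were higher, here with pool 1 above pool 2, and the difference was 1.00 ± 0.42 (limma adjusted p = 0.852). In the leukocyte list, Mpo and S100a8, genes of granulocytes, which can express Cebpb, were also higher in both iron-deficient pools, at 388 and 120 for Mpo and 700.3 and 544 for S100a8, against 13.1 and 11.6 for Mpo and 133 and 155 for S100a8 in the control pools. S100a9 was higher in the same way, while Lyz2, a gene of myeloid cells, was lower, at 399 and 260.2 in the iron-deficient pools, against 639 and 818 in the control pools. Ptprc and Csf1r also had negative differences, so 3 of the 6 leukocyte markers were positive and 3 negative. The 6 summed to 2749 and 2265 in iron-deficient pools, against 1515 and 1774 in control pools, with all 6 above background in every pool, and their part in the Cebpb difference was not tested. Nupr1, a small chromatin protein induced by stress, had 131 and 247 in the iron-deficient pools, against 182.5 and 242 in the control pools, and the groups overlapped.

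Feedback genes held the largest difference among the 37. Trib3, a pseudokinase that ATF4 and CHOP induce and that in turn restrains ATF4, had 43.8 and 128 in the iron-deficient pools, against 20.2 and 24.3 in the control pools. Both iron-deficient pools were above both control pools, pool 2 by more. The difference was 1.76 ± 0.57 on the log2 scale (95% interval 0.34 to 3.17, unadjusted p = 0.0235, limma adjusted p = 0.852), a ratio of mean signals of 3.86. Its other tested probe set differed by 1.71, with control signals of 13.7 and 15.1. In the control pools both Trib3 probe sets were thus near the mean signal required for testing (17.3). Without iron-deficient pool 2 the Trib3 difference was 0.98, and without iron-deficient pool 1 it was 2.53. Without control pool 1 its unadjusted p was 0.0519, past the threshold no longer.

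Chac1, an enzyme that breaks down glutathione and one of the most specific ATF4 targets, had 36.8 and 59 in the iron-deficient pools, against 28.3 and 23.7 in the control pools. These groups did not overlap, and the difference was 0.85 ± 0.38 (limma adjusted p = 0.852). Sesn2, which signals low leucine to the growth kinase complex mTORC1, had 35.5 and 89.3 in the iron-deficient pools, against 88.5 and 105 in the control pools. Pool 1 was low and pool 2 lay between the controls, and the difference was -0.78 ± 0.51. The other tested Sesn2 probe set had 52 and 46 in the iron-deficient pools, against 65.7 and 76.3 in the control pools. There both iron-deficient pools were below both control pools, and pool 2 was not above pool 1. Ppp1r15a, which encodes the GADD34 subunit that dephosphorylates eIF2 and ends the response, had 79.7 and 240.4 in the iron-deficient pools, against 159 and 149.9 in the control pools, again on either side. Eif4ebp1, a brake on cap-dependent translation, had 645.5 and 1088 in the iron-deficient pools, against 785 and 724 in the control pools.

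Of the other ATF4 targets, Asns, the asparagine synthetase whose promoter site is printed above, had 480 and 912 in the iron-deficient pools, against 590 and 622 in the control pools. Pool 1 was below both controls and pool 2 above both, with a difference of 0.13 ± 0.42 (95% interval -0.92 to 1.17). Vldlr, a lipoprotein receptor that ATF4 and hypoxia can each induce, had 1544 and 2095 in the iron-deficient pools, against 1345 and 1183 in the control pools. Its groups did not overlap, and the difference was 0.51 ± 0.34. All 6 tested Vldlr probe sets had positive differences, from 0.13 to 1.15. In the probe set with the largest of these, iron-deficient pool 1 was the high one, at 1378, with 493 in pool 2 and 372.5 and 368 in the control pools, so the order of the 2 iron-deficient pools depended on the probe set.

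**Figure D2:**
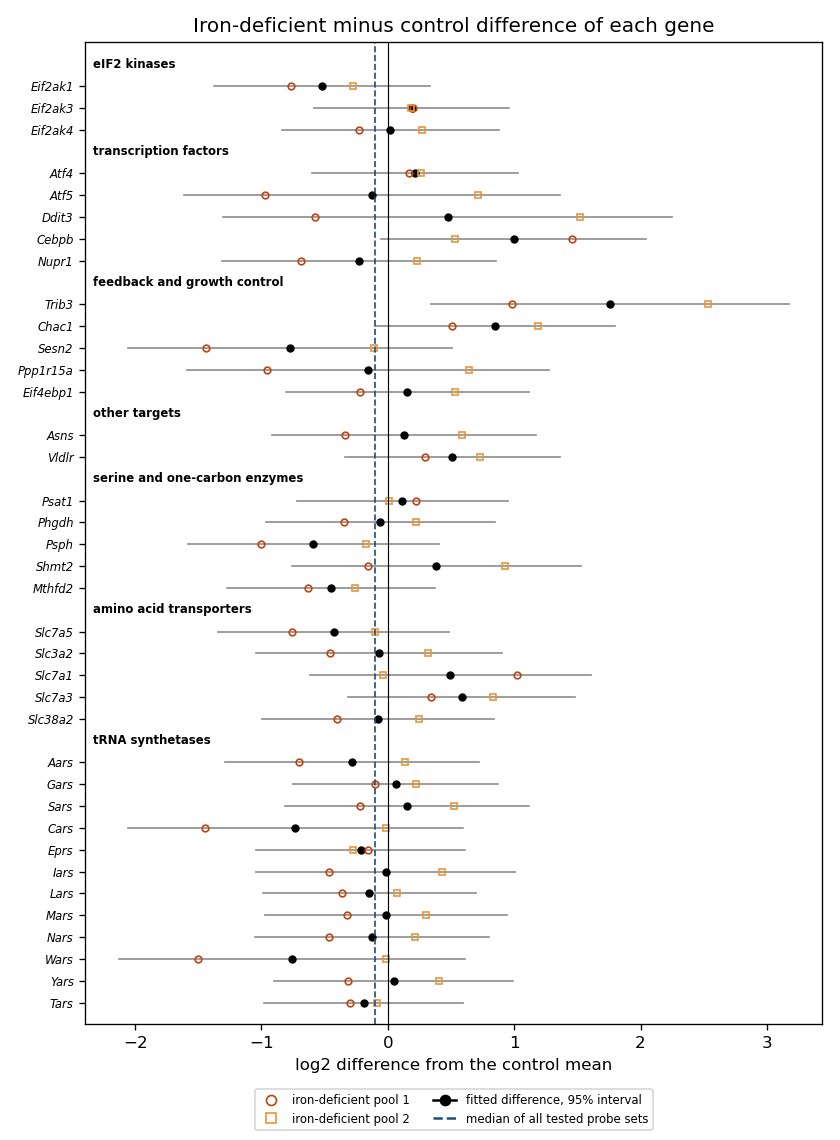
Fitted log2 difference of each gene, iron-deficient minus control, with its 95% interval (black, grey line) and the log2 difference of each iron-deficient pool from the mean of the control pools (open symbols). The interval of Trib3 lies above 0 and those of the other 36 genes include it, and pool 2 lies to the right of pool 1 for 32 genes.

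The serine and one-carbon enzymes supply serine, glycine and folate-bound carbon units. Phgdh, the first enzyme of serine synthesis, had 2435 and 3612 in the iron-deficient pools, against 2823 and 3381 in the control pools, a difference of -0.06 ± 0.36. Psat1, the second enzyme, had overlapping groups and differed by 0.12 ± 0.33. Psph, which makes serine in the last step, had 494 and 878 in the iron-deficient pools, against 966 and 1016 in the control pools. Both iron-deficient pools were lower, pool 1 by more, and the difference was -0.59 ± 0.40 (limma adjusted p = 0.852). Mthfd2, a mitochondrial folate enzyme, had 527 and 683 in the iron-deficient pools, against 818 and 819 in the control pools. Its groups did not overlap either, and it differed by -0.45 ± 0.33. Shmt2, which splits serine in mitochondria, had 438 and 925.5 in the iron-deficient pools, against 535 and 444 in the control pools, and all 4 of its tested probe sets had positive differences, from 0.20 to 0.61. The genes of this branch thus differed in sign, with 2 positive and 3 negative.

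Amino acid transporters were mixed as well. Slc7a3, a carrier of cationic amino acids, had 51.8 and 72.8 in the iron-deficient pools, against 46.4 and 36.2 in the control pools, which did not overlap, and differed by 0.58 ± 0.36. Slc7a1, the main carrier of cationic amino acids, had 3121 and 1495 in the iron-deficient pools, against 1495 and 1573 in the control pools. Only the signal of iron-deficient pool 1 was high, and the second tested probe set, with 418 and 529 in the iron-deficient pools and 570 and 516 in the control pools, did not show this. The differences of the 2 probe sets were 0.49 and -0.21. Slc7a5, the large neutral amino acid carrier LAT1, had 271 and 425 in the iron-deficient pools, against 470 and 444 in the control pools, and differed by -0.43 ± 0.37. Slc3a2, its partner chain, had overlapping groups and a difference of -0.07 ± 0.39. Slc38a2, a glutamine and alanine carrier that amino acid starvation induces, differed by -0.08 ± 0.37 at its brightest probe set, while a dimmer one differed by 0.78 ± 0.37, with 443 and 309 in the iron-deficient pools and 252 and 184 in the control pools.

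The cytosolic tRNA synthetases, which load amino acids onto their tRNAs, did not differ past the threshold, and 9 of 12 had negative differences. Their median was -0.13, close to the -0.14 over the brightest probe sets of all genes. Wars, the tryptophan enzyme, which interferon also induces, had 346.5 and 973 in the iron-deficient pools, against 938 and 1031 in the control pools. Only pool 1 was clearly low at this probe set, and the difference was -0.76 ± 0.55, with all 4 tested probe sets negative. At each of the dimmer Wars probe sets both iron-deficient pools were below both control pools. At 1 of them the iron-deficient pools had 142.5 and 413, against 511 and 497 in the control pools. Cars, the cysteine enzyme, had 61.3 and 165 in the iron-deficient pools, against 171 and 163 in the control pools. Only pool 1 was low, and the difference was -0.73 ± 0.53. Tars, the threonine enzyme, was the synthetase whose groups did not overlap at the brightest probe set. It had 711 and 825 in the iron-deficient pools and 870 and 879 in the control pools (-0.19 ± 0.31). For the other 9, Aars, Gars, Sars, Eprs, Iars, Lars, Mars, Nars and Yars, the differences ran from -0.28 in Aars to 0.15 in Sars, each smaller than its standard error. In iron-deficient pool 1, 11 of the 12 synthetases were below both control pools and none was above both (60.1% and 30.2% of all genes). In iron-deficient pool 2, 8 were above both control pools and 2 below (37.8% and 38.4% of all genes). Gars, the glycine enzyme, showed the split at small size, with 1694 and 2121 in the iron-deficient pools, against 1798 and 1834 in the control pools.

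This split between the iron-deficient pools ran through most of the 37 genes. In iron-deficient pool 1, 27 genes were below both control pools and 9 above (52.6% and 34.9% of all tested probe sets). In iron-deficient pool 2, 26 were above both control pools and 6 below (31.3% and 40.5% of all tested probe sets). Pool 2 exceeded pool 1 for 32 of the 37 genes, where 56.4% of all tested probe sets did so. With the brightest probe set of each of the 12997 genes as the comparison, which matches how the members were read, 65.4% were higher in pool 2 than in pool 1, 60.1% were below both control pools in pool 1 and 37.8% were above both in pool 2. The shares of the 37 genes were 86.5%, 73.0% and 70.3%. After quantile normalization, pool 2 exceeded pool 1 for 32 of the 37, against 65.2% of all genes.

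The gap, pool 2 minus pool 1, had a median of 0.68 on the log2 scale over the 37 genes and 0.34 over the brightest probe sets of all genes. It was largest for Ddit3 at 2.10, Atf5 at 1.68, Ppp1r15a at 1.59, Trib3 at 1.55, Wars at 1.49, Cars at 1.43, Sesn2 at 1.33 and Shmt2 at 1.08. These 8 genes had gaps over 1 (12.7% of all tested probe sets), and 1 gene, Slc7a1, had a gap under -1, at -1.06 (12.9% of all tested probe sets). The other genes higher in pool 1 than in pool 2 were Cebpb, Psat1, Eprs and Eif2ak3. In the control pools, the median gap of the 37 genes was 0.02. At dimmer tested probe sets the gap between the iron-deficient pools was -0.34 for Ddit3 and -0.18 for Sesn2. It was positive at those of Trib3, Wars and Shmt2. The 10 genes with TGATGNAA in a window had a median gap of 0.78, and the 20 with a window but no match had 0.60, while their median diet differences were 0.05 and -0.04.

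**Figure D3:**
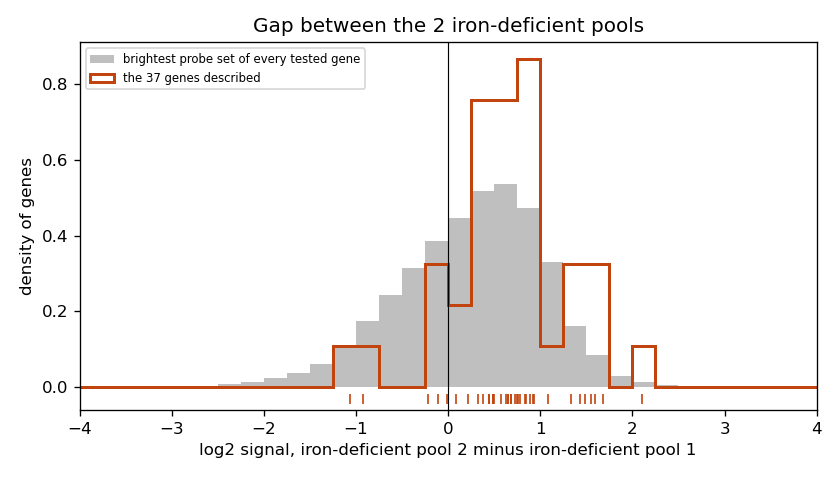
Density of the log2 gap between iron-deficient pool 2 and pool 1 for the 37 genes (orange outline, ticks for single genes) and for the brightest probe set of each of 12997 genes (grey). The medians are 0.68 and 0.34.

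Of the marker lists, those of liver and proximal tubule had a gap in the same direction, and the others did not. Liver markers summed to 181 in iron-deficient pool 1 and 2465 in pool 2, against 1338 and 1193 in the control pools. All 4 measured liver markers were higher in pool 2 than in pool 1, as for Alb at 17.3 and 373 and Ttr at 12.3 and 473, and 3 of the 4 were above background in every pool. All 9 proximal tubule markers were also higher in pool 2 than in pool 1, with a median gap of 1.21. Of all genes, 65.4% were higher in pool 2. Median gaps were -0.33 for erythroid, -0.23 for leukocyte, -0.24 for endothelial and -0.20 for nephron progenitor markers. They were -0.04 for stroma and for ureteric bud and collecting duct, and -3.99 for Y-linked genes. The part of these cell types and of the array of pool 1 in the gap was not tested.

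The rest of the pathway was read from 6 lists. Of 19 tested further ATF4 targets, none passed over all probe sets, and the median was 0.08. By limma, 2 were higher at an unadjusted p of 0.05 and none lower (1.14% and 2.81% of all tested probe sets). Both iron-deficient pools were above both control pools for 7 of them (11.8% of all tested probe sets). Stc2, a secreted glycoprotein that stress and hypoxia induce, had 288 and 463 in the iron-deficient pools, against 73.5 and 92.3 in the control pools. That difference, 2.15 ± 0.38 (unadjusted p = 0.00186, limma adjusted p = 0.698), was the largest in the list. Ddit4, an mTORC1 inhibitor also induced by hypoxia, had 5800 and 3835 in the iron-deficient pools, against 1843 and 2385 in the control pools, and differed by 1.17 ± 0.37 (unadjusted p = 0.0230). In both genes the groups were well apart, and in Ddit4 pool 1 was the higher. Aldh1l2, a mitochondrial folate enzyme, and Cth, of cysteine synthesis, differed by 0.56 ± 0.36 and -0.46 ± 0.31. Slc7a11 and Fgf21 were too dim to be tested.

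Of 18 tested endoplasmic reticulum stress genes, 6 were below and 2 above both control pools in both iron-deficient pools, where 25% and 11.8% of all tested probe sets were. None passed at an unadjusted p of 0.05, and the median was -0.17, against -0.10 over all tested probe sets. Sdf2l1, a chaperone partner in the endoplasmic reticulum and a sensitive mark of unfolded protein, had 161 and 203 in the iron-deficient pools, against 309 and 313 in the control pools (-0.78 ± 0.32, unadjusted p = 0.0558). Creld2, an endoplasmic reticulum protein induced by the same stress, differed by -0.79 ± 0.40, and Edem1, which sorts misfolded protein for breakdown, by -0.71 ± 0.42. Pdia4, a disulfide isomerase, had 1005 and 123 in the iron-deficient pools, against 101 and 99.5 in the control pools, so its difference of 1.81 ± 0.97 rested on pool 1.

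Mitochondrial tRNA synthetases, 16 tested, had a median of -0.33, with 14 negative, against -0.14 over the brightest probe sets of all genes. Both iron-deficient pools were below both control pools for 5 of them (25% of all tested probe sets). None passed at an unadjusted p of 0.05. Rars2 had 341 and 615 in the iron-deficient pools, against 651 and 734 in the control pools (-0.59 ± 0.40), and Sars2, Fars2 and Mars2 differed by -0.58, -0.57 and -0.51. Without iron-deficient pool 1 the list's median was 0.12. Below both controls were 15 of 16 in pool 1 and 5 in pool 2 (52.6% and 40.5% of all tested probe sets). The 7 other cytosolic synthetases tested had a median of -0.01, with Rars, Farsa, Hars and Vars at -0.29, -0.43, 0.26 and 0.30. The list of eIF2 and its regulators, 13 tested, had a median of -0.23, with the eIF2B subunits Eif2b1 and Eif2b5 at -0.71 ± 0.41 and -0.45 ± 0.41, Eif2s3x, an X-linked subunit of eIF2, at 0.63 ± 0.41, and the viral RNA sensor Eif2ak2 at -0.45 ± 0.35. The 8 mitochondrial stress and protease genes had a median of -0.06. Of these, Oma1 and Dele1, which relay mitochondrial stress to HRI in human cells, differed by -0.62 ± 0.37 and -0.52 ± 0.48, and Dnaja3 and Hspe1, mitochondrial chaperones, by 0.53 ± 0.44 and 0.40 ± 0.38. None of these lists had a gene past an unadjusted p of 0.05.

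**Figure D4:**
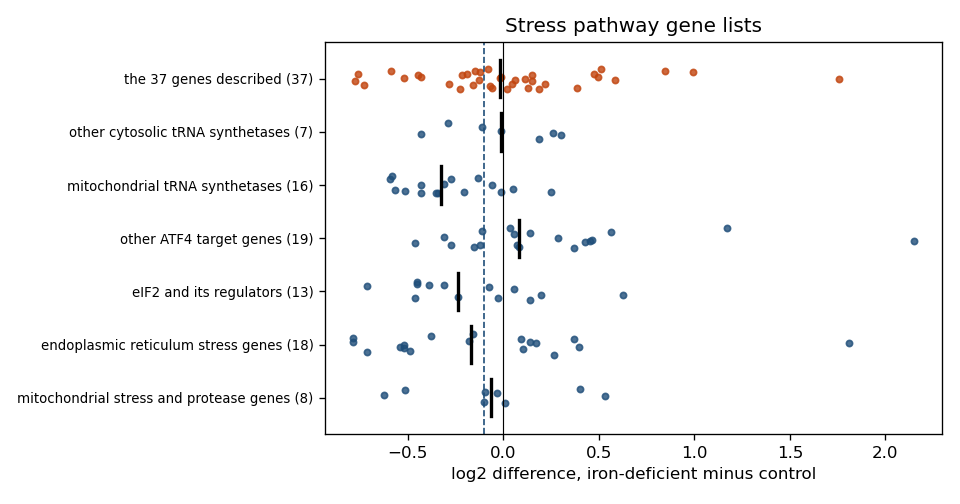
Log2 difference, iron-deficient minus control, of each tested gene of the 37 described (orange) and of 6 further pathway lists (blue), with the number tested in brackets, the list median as a black bar and the median of all tested probe sets as a dashed line. The 37 genes have a median of -0.02, mitochondrial tRNA synthetases of -0.33 and further ATF4 targets of 0.08, where Stc2 lies farthest to the right at 2.15.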

How the data were processed

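RNA from 4 pools of 16 kidneys was measured, 2 pools per diet. The deposited intensity values are linear, 1 per probe set and array, and their mean after trimming 2% at each end is 250.0 on every array. RMA is named in the submitters' processing notes, but the values are not log2, and for the deposited scale no software is named by the labels or headers. Zeros were set to 0.1, intensities were turned to log2, 64 control probe sets and the dimmest 40% of the other 45037 (mean signal up to 17.3) were left out, and 27022 were fitted with limma 3.58.1 in R 4.3.3 (lmFit, eBayes, two-sided, Benjamini-Hochberg, 2 residual degrees of freedom). Background on an array is its highest signal among 27 control probe sets whose target was not spiked in (14.4 and 13.3 in iron-deficient pools, 8.5 and 8.2 in control pools).

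The members and lists were chosen with earlier results of these data known. All 37 members are named, the 6 with the smallest p in each direction and 9 chosen by role (3 of them among those) with all signals, as are 8 more chosen after their values were seen (Nupr1, Ppp1r15a, Eif4ebp1, Phgdh, Shmt2, Slc7a5, Tars and Gars), and up to 4 genes of each other list by smallest p. Of the pathway lists, Dars, Gdf15, Pycr1 and Eif2s1 were not analysed here, and 1 motif site is not reported here. The fit was tested on simulated data over 27022 probe sets, where 2-fold changes were found at an unadjusted p of 0.05 in 48.4% and at an adjusted p of 0.05 in 0%. At an adjusted p of 0.05, 4-fold changes were found in 0%, 8-fold in 0.4% and 16-fold in 4.4%. In each run 50 probe sets were changed at each fold, and the pools of both diets had equal spread, unlike the measured pools. Alternatives were other filters, scalings, eBayes settings, array weights, an offset of 16, other probe set rules, a replicate block, an adjusted p of 0.10 and leaving out each pool. The number of arrays limits the precision.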

Additional observations from a re-analysis of the deposited data

Results flagged for a closer look

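Among the control probe sets, which entered no comparison, that for the 5′ end of 18S ribosomal RNA gave 2144.5 on the array of iron-deficient pool 1 and 243 on that of iron-deficient pool 2, against 292 and 289 on the arrays of the control pools. The signal of iron-deficient pool 1 was therefore above both control arrays.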

How the results depend on the processing

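No probe set was called by limma at an adjusted p of 0.05 or 0.10. Median centring called 201 at 0.05, 1 probe set per gene called 8, the mean over the probe sets of a gene called 10, and leaving out single pools called 0 to 75, with 75 without control pool 1 and 31 without control pool 2. With a pool left out, the lone pool of its diet is assumed to vary like the other diet's pools. A fit with the pool number as a replicate block called 479, among them 1 of the 37 genes, Trib3, whose adjusted p was then 0.0152 (0.0152 to 1.00 over its alternatives). With 2 pairs the data cannot show whether the numbers pair the pools, and the labels do not say that they do.

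At an unadjusted p of 0.05 the count of the 37 genes that were higher, 1, became 0 when the dimmest 60% of probe sets were left out (32 of the genes remain), 2 with the replicate block, 2 with 1 probe set per gene and 3 with the mean over probe sets. In that order, 1.04%, 4.54%, 1.69% and 1.58% of all probe sets or genes tested were higher. With single pools left out the counts of higher and of lower genes both moved, as did the shares of all probe sets. They are not given, since the lone pool of a diet then has no spread of its own. The count with both iron-deficient pools above the controls, 7, was 3 without the dimmest 60% (12.1% of probe sets), which leaves out Trib3, Cebpb, Chac1 and Slc7a3. The count below, 5, was 2 after median centring (15.7% of probe sets). With single pools left out the counts above and below ranged from 7 to 26 and from 6 to 27. The 26 came without iron-deficient pool 1 and the 27 without pool 2, where the shares of all tested probe sets were 31.3% and 52.6%. The median difference ranged from -0.34 to 0.25. Pool counts under quantile normalization and median centring were alternatives chosen after seeing the data. The counts of genes below both controls in iron-deficient pool 1 (26 and 27, against 27 as deposited), above both in pool 2 (27 and 20, against 26) and higher in pool 2 than in pool 1 (32 and 35, against 32) stayed within 1.5 times. Of all genes, 57.8% and 61.7% were below both controls in pool 1 under these scalings. Above both in pool 2 were 41.4% and 35.3%, and higher in pool 2 than in pool 1 were 65.2% and 74.5%. The count below both controls in pool 2 was 7 and 2 (35.7% and 20% of all genes), against 6 as deposited. That above both in pool 1 was 8 and 6 (32.2% and 21.7% of all genes), against 9.

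The differences of single genes gave 550 values under the alternatives. Of these, 519 kept their sign and their side of the threshold, and 30 turned sign, 25 of them with a pool left out. The signs of 16 genes never turned. Under quantile normalization Psat1 gave -0.063, Gars -0.069, Mars 0.025 and Atf5 0.015, and Slc38a2 gave 0.18 as a mean over probe sets. With single pools left out the log2 differences ranged for Aars -0.70 to 0.14, Asns -0.34 to 0.59, Atf5 -0.97 to 0.72, Ddit3 -0.58 to 1.52, Eif2ak4 -0.23 to 0.27, Eif4ebp1 -0.22 to 0.53, Gars -0.10 to 0.22, Iars -0.46 to 0.43, Lars -0.37 to 0.072, Mars -0.33 to 0.30, Nars -0.46 to 0.22, Nupr1 -0.69 to 0.23, Phgdh -0.34 to 0.23, Ppp1r15a -0.95 to 0.64, Psat1 -0.072 to 0.30, Sars -0.22 to 0.53, Shmt2 -0.15 to 0.93, Slc38a2 -0.40 to 0.25, Slc3a2 -0.46 to 0.32, Slc7a1 -0.037 to 1.03, Yars -0.32 to 0.41. The cause of these turns was not tested. With 2 pools per diet, changes of 2-fold and 4-fold in simulated data did not reach an adjusted p of 0.05, and 16-fold changes did in 4.4%. The absence of calls therefore says little about changes of these sizes.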
